A study of Caenorhabditis elegans with 22 samples.

Results

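The genes that activate and oxidise fatty acids in Caenorhabditis elegans were followed as a group of 64 among the 19598 genes of the deposited count table. Membership went by gene name. The members are the genes named acs, cpt, pmp, acdh, acox, ech, hacd or kat followed by a number, apart from acs-1, together with daf-22, dhs-28, maoc-1 and the acyl-CoA oxidase genes that the table lists by sequence name (F08A8.2, F08A8.3, F08A8.4, F59F4.1 and C48B4.1). By role they comprise 20 acyl-CoA synthetases, 6 carnitine palmitoyltransferases, 5 ABC transporters of the peroxisomal membrane family, 13 acyl-CoA dehydrogenases, 6 acyl-CoA oxidases, 10 enoyl-CoA hydratases, 2 3-hydroxyacyl-CoA dehydrogenases and 2 3-ketoacyl-CoA thiolases. All 64 passed the filter on low counts, which kept 16431 genes, and together they took 0.489% of all counts.

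Beta-oxidation removes acetyl units from the end of a fatty acid by repeated rounds of dehydrogenation, hydration, a further dehydrogenation and thiolysis. A fatty acid first has to be joined to coenzyme A by an acyl-CoA synthetase, after which it enters mitochondria through the carnitine shuttle or peroxisomes through ABC transporters. Mitochondria start each round with an acyl-CoA dehydrogenase and peroxisomes with an acyl-CoA oxidase. In C. elegans the peroxisomal arm also shortens the side chains of ascarosides, the pheromones of the worm, and much of fatty acid metabolism takes place in the intestine and hypodermis.

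RNA was sequenced from whole adults of the strains ser-7(vq2), ser-5(vq1) and wild-type N2. The ser-7 and ser-5 genes encode serotonin receptors, and the comparisons ask how serotonin and loxapine, an antipsychotic drug of the tricyclic class, act with and without each receptor. N2 gave 3 libraries with 5 mM serotonin, 3 with 50 µM loxapine and 5 with DMSO. The ser-7 mutant gave 3 with serotonin and 3 with DMSO, and the ser-5 mutant gave 2 with loxapine and 3 with DMSO. Animals of every group were fed X-ray killed OP50 bacteria in S-complete liquid medium with 50 µg/ml carbenicillin, were sterilised as L4 larvae with 0.12 mM FUDR, an inhibitor of DNA synthesis, and were harvested after 72 h of treatment that began on day 1 of adulthood. Serotonin was dissolved in water and loxapine in DMSO (under 0.3%), and the untreated groups were DMSO groups. A difference in vehicle in the serotonin comparisons was not tested.

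Libraries held 25652111 to 39765014 counts, with overlapping ranges in the treated and DMSO groups. Whether replicates came from separate cultures is not stated, and p-values reflect only how far these libraries spread, which may be technical. The N2 DMSO replicates 2 and 5 resembled each other, as did 3 and 6, more than other pairs within a group (chi-square per degree of freedom 5.16 and 4.03, against 12.58 to 150.7). Each still entered the tests as a library of its own, and p-values resting on N2 DMSO can be too small for that reason. The mutant transcripts matched the strain labels: with DMSO, ser-7 was lower in ser-7 than in N2 (log2 fold change -6.81, edgeR quasi-likelihood test, adjusted p = 1.89e-07), and ser-5 was lower in ser-5 than in N2 (-2.58, adjusted p = 0.00451). The libraries fall into 3 series by their consecutive numbers in the labels, and every group except ser-5 with loxapine has libraries in all 3. N2 DMSO replicates 2 and 5 are both in series 2 and replicates 3 and 6 both in series 3. Replicate 4 is the only N2 DMSO library in series 1. No other pair within a group shares a series, so the resemblance of these controls cannot be told apart from a shared series. Replicate 1 stood apart for these genes in both compound groups of N2. N2 serotonin replicate 1 held the lowest level of its group for 47 of the 64 members, against 43.4% of all tested genes, and N2 loxapine replicate 1 did so for 43 of the 64, against 36.7%.

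In N2 with DMSO, levels differed widely between members. Per kilobase of exon, the highest level was that of acdh-1, an acyl-CoA dehydrogenase of short and branched chains that also acts in the propionate shunt, at 333 ± 56.3 CPM per kb (CPM, the count scaled to a library total of 1e6; SD, n = 5). It was followed by the enoyl-CoA hydratase gene ech-6 at 245 ± 24.8, cpt-1, for the outer carnitine palmitoyltransferase that admits long chains to mitochondria, at 173 ± 7.54, and the long-chain acyl-CoA synthetase gene acs-13 at 162 ± 5.62 CPM per kb. The spreads of cpt-1 and acs-13 touched each other, whereas acdh-1 and ech-6 had SD ranges apart from those of the genes next in order. Of the late steps, kat-1, for a mitochondrial thiolase, stood at 89.2 ± 9.30 and dhs-28, for a peroxisomal 3-hydroxyacyl-CoA dehydrogenase, at 88.3 ± 6.63 CPM per kb, and they did not differ beyond their spread. The 6 acyl-CoA oxidase genes were low, from 13.2 CPM per kb for acox-1 down to 1.40 for F08A8.3. In plain CPM, 16 members averaged over 100 and 8 averaged under 1 (acs-6, acs-9, acs-10, acs-15, acs-18, acdh-5, acdh-6 and acdh-8). For these 8 genes SEs of fold changes were wide, and none of them passed the test in any comparison.

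Several members, at low and high levels, sit side by side in the genome. By identifier in Ensembl release 115 (WBcel235), the oxidase genes acox-1 (current name acox-1.1), F08A8.2 (acox-1.2), F08A8.3 (acox-1.3) and F08A8.4 (acox-1.4) follow each other on the plus strand of chromosome I between 12938555 and 12954003. The neighbours ech-9 and ech-8 lie between 10233310 and 10239176 on the minus strand of chromosome IV. The ABC transporter genes pmp-1 and pmp-2 lie between 6880704 and 6887805 on the minus strand of chromosome II. At higher levels, acdh-10 and acdh-7 lie between 17213144 and 17217105 on the minus strand of chromosome X. On chromosome II, acdh-12 (minus strand) and maoc-1 (plus strand) lie between 7192429 and 7197495. How the counting treated strand and reads shared by related genes is not given in the sources used here, so the values of these neighbours and of acdh-1 and acdh-2 are uncertain to that extent.

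**Figure D1:**
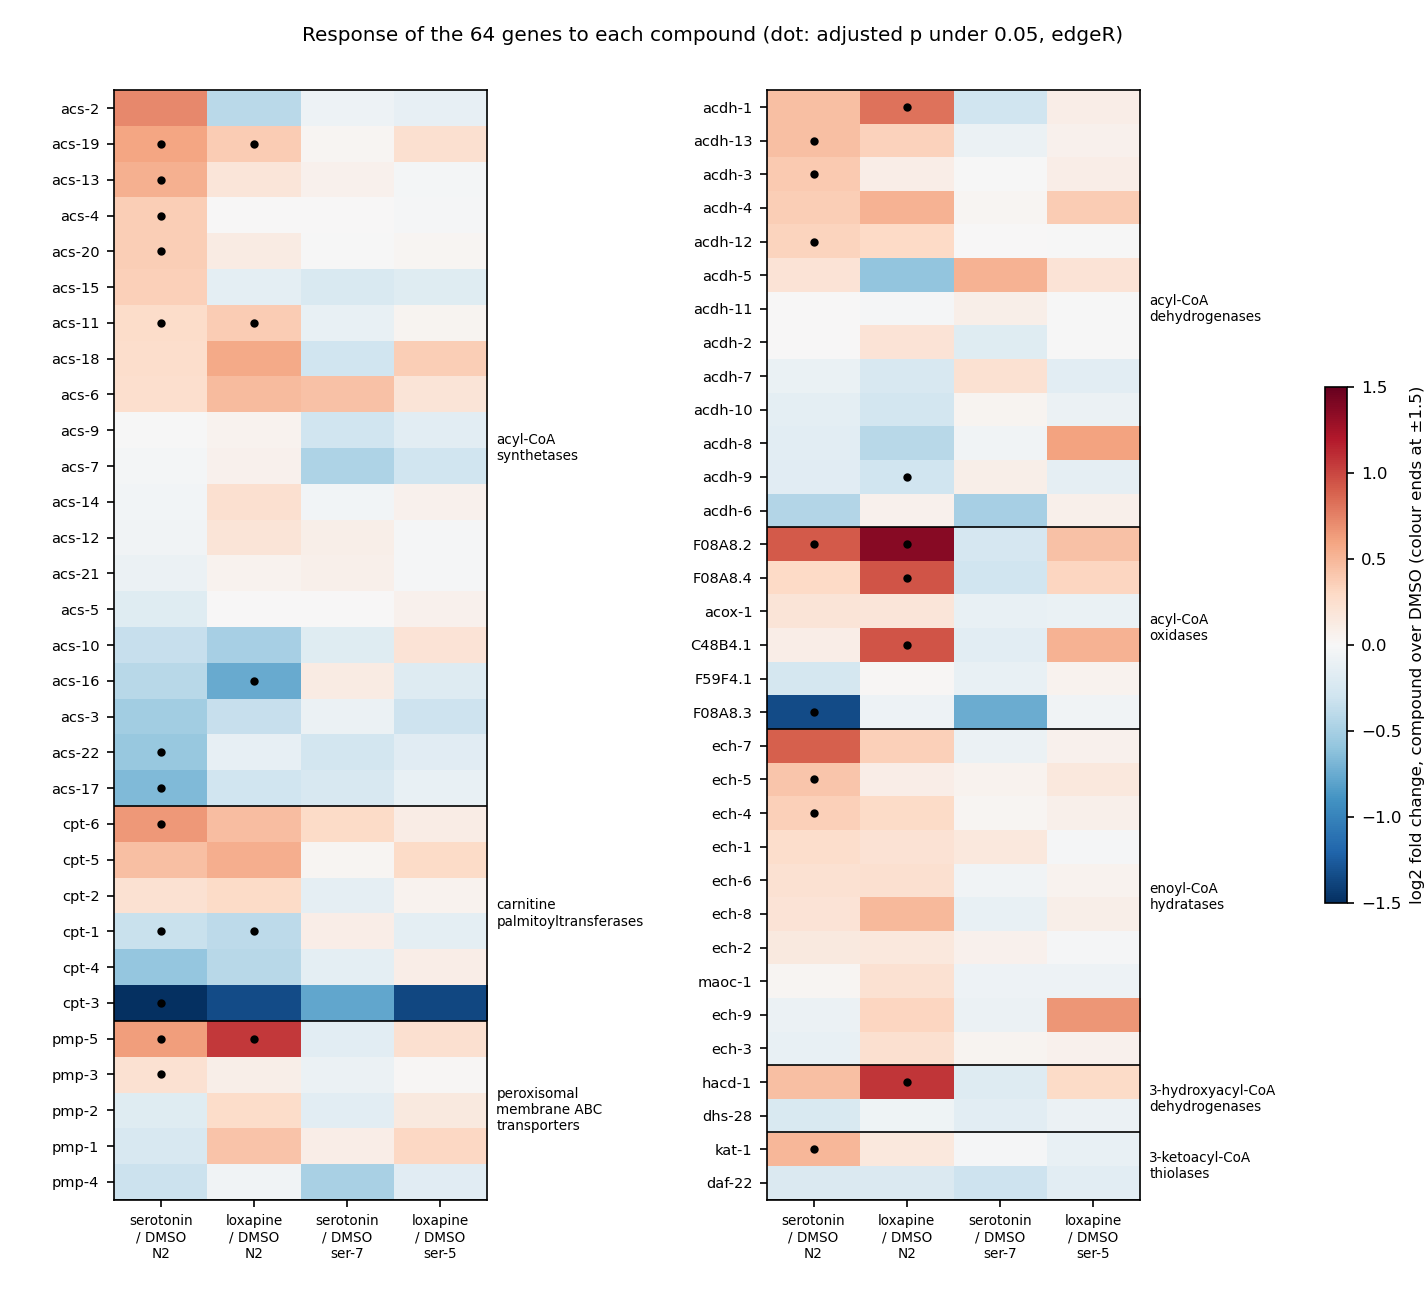
Log2 fold changes (compound over DMSO, edgeR) of the 64 genes, grouped by role and sorted within each role by the serotonin response in N2. Columns are serotonin in N2, loxapine in N2, serotonin in ser-7 and loxapine in ser-5. Dots mark adjusted p under 0.05: there are 20 in the first column, 11 in the second and none in the other columns. The colour scale ends at 1.5 in either direction, and cpt-3 with serotonin in N2 (-2.41) lies beyond it.

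Serotonin in N2 raised 15 members and lowered 5 of 64 (edgeR quasi-likelihood test, Benjamini-Hochberg adjusted p under 0.05). The share changed was 31.2%, against 37.1% of all tested genes. The share higher was 23.4%, against 20.4% of all genes, and the share lower was 7.81%, against 16.8%. The median log2 fold change of the members was 0.13, against -0.12 over all tested genes. All 3 serotonin libraries lay above all 5 DMSO libraries for 9 members, where 17.1% of all genes did so, and below them for 6, where 15.5% did so.

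Among the genes of activation, 5 of 20 acyl-CoA synthetases rose with serotonin in N2 and 2 fell. The level of acs-13 was 565, 612 and 695 CPM with serotonin, against 416 to 455 CPM (median 426) in the 5 DMSO libraries. That of acs-19, which resembles the human acetyl-CoA synthetase ACSS2, was 359, 466 and 542 CPM with serotonin, against 287 to 323 CPM (median 299) with DMSO. In neither gene did the groups overlap, and the lowest serotonin library was replicate 1 in both. The log2 fold change was 0.53 ± 0.09 for acs-13 (SE, adjusted p = 0.000183) and 0.59 ± 0.10 for acs-19 (adjusted p = 0.000175). Within the 3 library series the log2 difference was 0.44, 0.52 and 0.64 for acs-13 and 0.26, 0.69 and 0.78 for acs-19. The other synthetase genes that rose were acs-20, a relative of mammalian FATP4 that acts in the cuticle barrier, at 0.37 ± 0.12 (adjusted p = 0.0184), and, named here after their values were seen, acs-4 (0.37) and acs-11 (0.28).

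The 2 synthetase genes that fell were acs-17, for a relative of the long-chain synthetases, and acs-22, for another relative of FATP4. The level of acs-22 was 45.3, 69.2 and 59.3 CPM with serotonin, against 78.0 to 91.7 CPM (median 87.4) with DMSO. For acs-17 the serotonin libraries had 38.3, 38.9 and 30.6 CPM, against 51.9 to 60.3 CPM (median 58.5) with DMSO. Every serotonin library lay below every DMSO library in both genes. The log2 fold change was -0.57 ± 0.13 for acs-22 (adjusted p = 0.00143) and -0.67 ± 0.16 for acs-17 (adjusted p = 0.00220). The starvation-responsive synthetase gene acs-2 had the largest positive value of its family without passing. It stood at 372, 247 and 138 CPM with serotonin, against 82.8 to 238 CPM (median 114) with DMSO, and the groups overlapped (log2 fold change 0.72 ± 0.39, adjusted p = 0.157). With the library series as a block it passed (adjusted p = 0.0113).

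Of the 6 carnitine palmitoyltransferase genes, cpt-6 rose with serotonin in N2 and cpt-1 and cpt-3 fell. The level of cpt-1 was 408, 387 and 357 CPM with serotonin, against 453 to 503 CPM (median 494) with DMSO, without overlap. Its log2 fold change was -0.34 ± 0.08 (adjusted p = 0.00148), and it was -0.15, -0.33 and -0.50 within the 3 series. The level of cpt-6, a CPT1-like gene, was 16.8, 22.8 and 23.9 CPM with serotonin, against 10.9 to 16.2 CPM (median 13.4) with DMSO, a log2 fold change of 0.66 ± 0.18 (adjusted p = 0.00840). The CPT1-like gene cpt-3 stood at 1.23, 1.14 and 4.03 CPM with serotonin, against 4.08 to 21.1 CPM (median 7.29) with DMSO. Its serotonin libraries all lay below the DMSO libraries, with a log2 fold change of -2.41 ± 0.76 (adjusted p = 0.0192), but its DMSO level had the widest relative spread of the members above 5 CPM. The inner-membrane transferase gene cpt-2 had 0.23 ± 0.12 and did not pass (adjusted p = 0.128).

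Among the ABC transporters, pmp-5, a relative of human ABCD4, which serves cobalamin transport in human cells, rose with serotonin in N2. It had 64.6, 88.4 and 71.0 CPM with serotonin, against 33.4 to 59.9 CPM (median 54.5) with DMSO, a log2 fold change of 0.62 ± 0.18 (adjusted p = 0.00874). The groups did not overlap, although the gap between the lowest serotonin and the highest DMSO library was small. The gene pmp-3, named after its values were seen, rose by 0.23 (log2). The genes pmp-1, pmp-2 and pmp-4, the last related to the adrenoleukodystrophy transporter of humans, had log2 fold changes between -0.33 and -0.18 and did not pass.

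At the dehydrogenation step, 3 of 13 acyl-CoA dehydrogenases rose with serotonin in N2 and none fell. They were acdh-13 at 0.45 ± 0.12 (log2, adjusted p = 0.00663), acdh-12, related to the very-long-chain dehydrogenase of mammals, at 0.34 ± 0.12 (adjusted p = 0.0391), and, named after its values were seen, acdh-3 (0.39). The level of acdh-1 was 568, 971 and 758 CPM with serotonin, against 456 to 655 CPM (median 571) with DMSO. Its lowest serotonin library lay at the DMSO median, and the log2 fold change of 0.45 ± 0.18 missed the threshold (adjusted p = 0.0590). Of the 6 acyl-CoA oxidases, which open the peroxisomal round, F08A8.2 rose and F08A8.3 fell. F08A8.2 stood at 4.81, 10.5 and 6.91 CPM with serotonin, against 2.61 to 5.68 CPM (median 3.55) with DMSO, so that replicate 1 lay within the DMSO range (log2 fold change 0.92 ± 0.24, adjusted p = 0.00459). F08A8.3 stood at 0.691, 1.05 and 1.76 CPM with serotonin, against 2.11 to 4.15 CPM (median 2.36) with DMSO, without overlap (-1.34 ± 0.39, adjusted p = 0.00949).

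Of the 10 enoyl-CoA hydratases, ech-5 (log2 fold change 0.41 ± 0.12, adjusted p = 0.0101) and, named after its values were seen, ech-4 (0.36) rose with serotonin in N2, and none fell. Neither 3-hydroxyacyl-CoA dehydrogenase passed. At the thiolase step, kat-1 had 132, 178 and 190.3 CPM with serotonin, against 105 to 132 CPM (median 115) with DMSO. The lowest serotonin library, replicate 1, was within 1 CPM of the highest DMSO library and below it, and the other two lay above the DMSO range. The log2 fold change of kat-1 was 0.49 ± 0.12 (adjusted p = 0.00215), and it was 0.28, 0.69 and 0.53 within the 3 series. The genes of the peroxisomal ascaroside pathway maoc-1 (0.02), dhs-28 (-0.23) and daf-22 (-0.22), for an enoyl-CoA hydratase, a 3-hydroxyacyl-CoA dehydrogenase and a thiolase, did not pass.

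Calls for acs-13, acs-17, acs-19, acs-22, cpt-1 and kat-1 stayed past the threshold under each of the 17 alternatives tried, while each of the other 14 lost its call under at least 1. Without N2 serotonin replicate 3 the count of changed members was 10, without replicate 1 it was 28 and without replicate 2 it was 17. Leaving out replicate 2 ended the call of F08A8.2 (adjusted p = 0.0758) and of pmp-5 (0.0669), leaving out replicate 1 that of F08A8.3 (0.0506), leaving out either of these that of cpt-3 (0.0649 and 0.0802), and leaving out replicate 3 that of cpt-6 (0.0587), acdh-13 (0.0766), ech-5 (0.138) and acs-20 (0.0921). The call of acdh-12 ended under 10 alternatives, with adjusted p up to 0.284. With the replicate tag of the labels as a block, acs-11 (adjusted p = 0.0593), acs-20 (0.0592) and pmp-3 (0.125) lost their calls, while acdh-1 (0.0350) and, named after their values were seen, acs-16 (0.0474, lower) and cpt-4 (0.0111, lower) gained one, so that the count stayed at 20.

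Related genes outside the group were read from lists chosen with earlier results of these data known. Of all tested genes 37.1% changed with serotonin in N2 (20.4% higher and 16.8% lower), and an excess in these lists was not tested. Of 14 partners of mitochondrial beta-oxidation, 4 rose and 1 fell with serotonin in N2, among them the isovaleryl-CoA dehydrogenase gene ivd-1 (0.36 ± 0.09) and the thiolase genes T02G5.7 (0.40 ± 0.11) and F53A2.7 (0.35 ± 0.10). Of 9 genes of propionate breakdown 4 rose and none fell, including Y38F1A.6, for the hydroxyacid-oxoacid transhydrogenase of the propionate shunt (0.62 ± 0.11), and mmaa-1, for a factor of the cobalamin-dependent pathway (0.62 ± 0.11). Of 13 genes of peroxisome assembly and catalase 3 rose and 3 fell, with ctl-2, for the peroxisomal catalase, at -0.63 ± 0.08. Of 13 regulators of fatty acid breakdown 2 rose and 3 fell, among them the nuclear receptor gene nhr-80 at -0.58 ± 0.13, while nhr-49, for a main activator of beta-oxidation genes, stood at -0.09 and did not pass (adjusted p = 0.521).

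Markers of other tissues differed in the same libraries, in which 37.1% of all tested genes changed with serotonin in N2. With serotonin in N2, 15 of 16 germline and oocyte markers rose, and their summed level was 7717 to 12609 CPM with serotonin, against 5024 to 6121 CPM with DMSO. All 10 changed body wall muscle markers of 12 were lower, with sums of 2099 to 2598 CPM with serotonin, against 4051 to 4856 CPM with DMSO, and 10 of 12 neuron markers were lower (665 to 771 CPM with serotonin, against 878 to 1101 CPM with DMSO). Of 11 intestine markers 1 rose and 3 fell (2271, 3057 and 6186 CPM with serotonin, against 2673 to 3488 CPM with DMSO), and only serotonin replicate 3 lay above the DMSO range. Of 12 hypodermis and seam markers 2 rose and 2 fell (906 to 1243 CPM with serotonin, against 1094 to 1297 CPM with DMSO). None of the 9 tested sperm markers passed, and their sum was at most 14.9 CPM with serotonin and 17.6 CPM with DMSO. No marker of these lists was at 0 in either group, and in whole animals fewer cells of a type and less RNA per cell cannot be told apart. The part of these shifts in the members' changes was not tested.

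**Figure D2:**
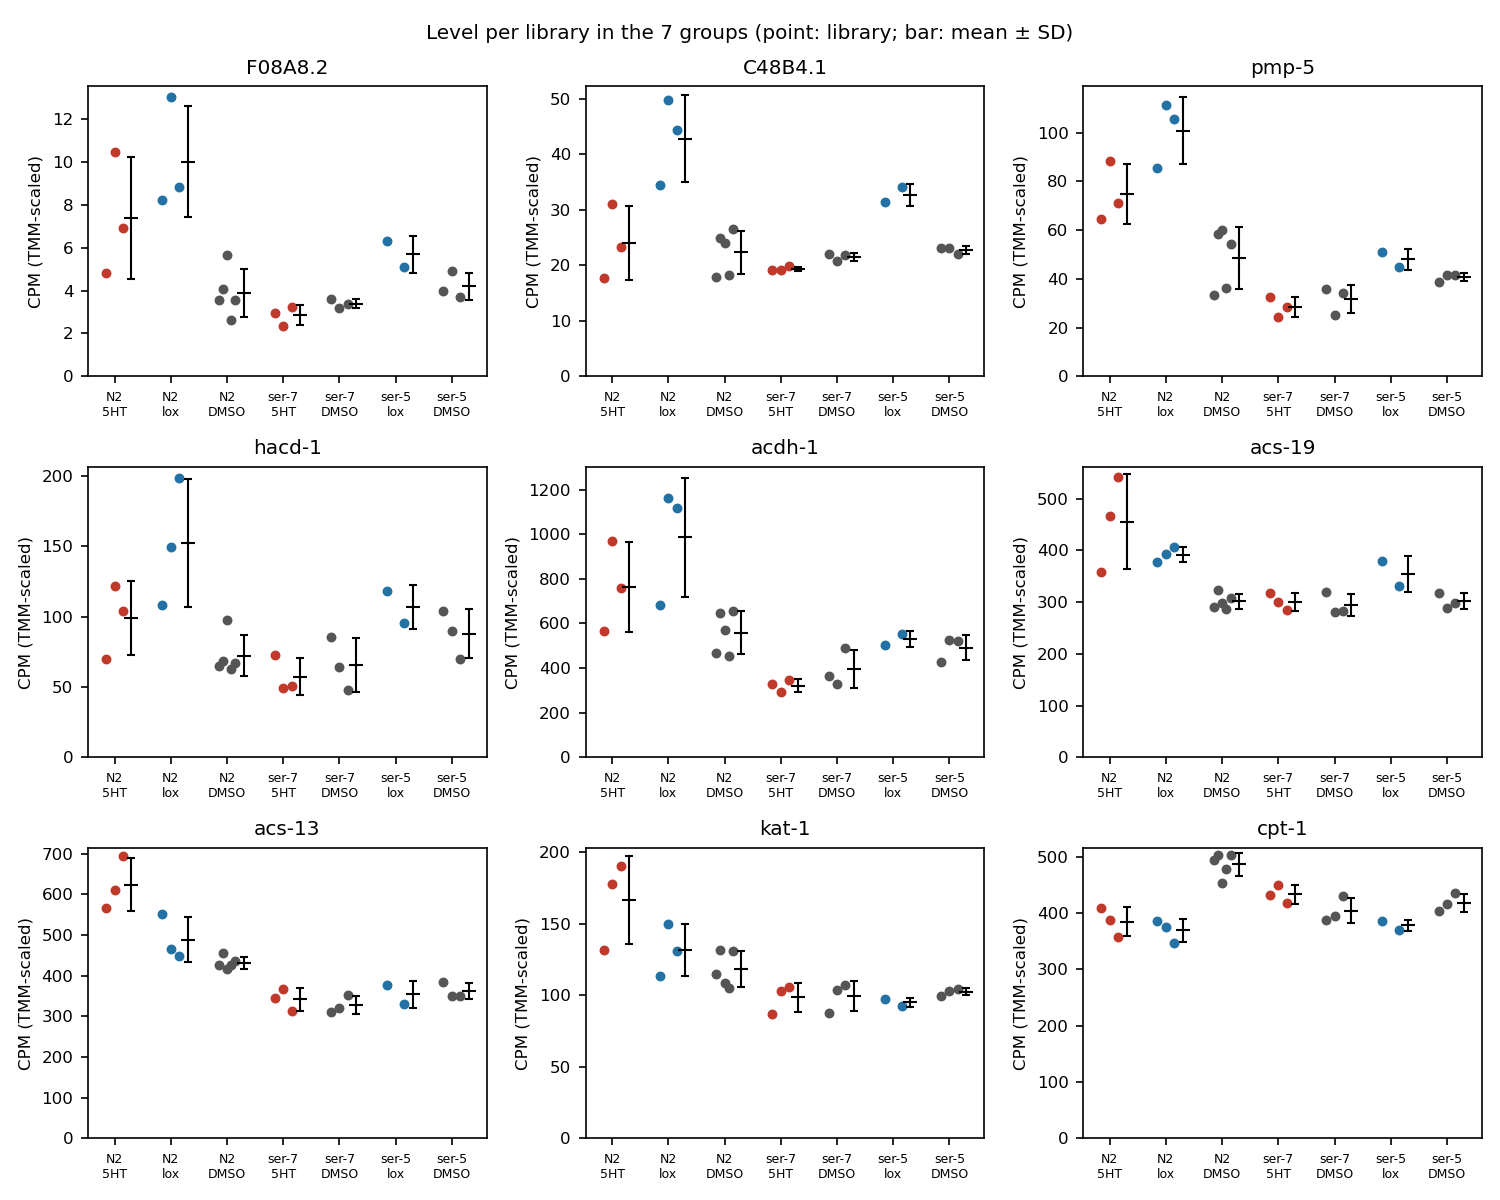
Levels (CPM on TMM-scaled library totals) of 9 members in the 7 groups, with serotonin written as 5HT and loxapine as lox. Points are libraries and the bars beside them are the mean ± SD. The 3 loxapine libraries of N2 lie above all 5 DMSO libraries for F08A8.2, C48B4.1, pmp-5, hacd-1, acdh-1 and acs-19, and below them for cpt-1, while in ser-7 the serotonin and DMSO libraries of acs-13, acs-19 and F08A8.2 lie close together.

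Loxapine in N2 raised 8 members and lowered 3 of 64. The share changed was 17.2%, against 18.9% of all tested genes, with 12.5% higher against 10.5% of all genes and 4.69% lower against 8.38%. The median log2 fold change was 0.15, against -0.07 over all tested genes. All 3 loxapine libraries lay above all 5 DMSO libraries for 13 members, where 15.7% of all genes did so, and below them for 3, where 12.6% did so. The loxapine and serotonin comparisons use the same N2 DMSO libraries, so their values are given side by side and are not independent.

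The acyl-CoA oxidases held 3 of the 8 members that rose with loxapine in N2. F08A8.2 stood at 8.22, 13.0 and 8.83 CPM with loxapine, against 2.61 to 5.68 CPM (median 3.55) with DMSO. C48B4.1 (current name acox-1.5, chromosome III, 9586618 to 9592192) stood at 34.4, 49.8 and 44.3 CPM with loxapine, against 17.9 to 26.5 CPM (median 23.9) with DMSO. Both genes were separated from DMSO in every library. The log2 fold change was 1.36 ± 0.23 for F08A8.2 (adjusted p = 0.00182) and 0.94 ± 0.15 for C48B4.1 (adjusted p = 0.00133), against 0.92 and 0.11 for the same genes with serotonin. Within the 3 series the loxapine difference was 0.53, 2.04 and 1.19 for F08A8.2 and 0.52, 1.45 and 0.78 for C48B4.1. F08A8.4 had 11.31, 20.9 and 25.2 CPM with loxapine, against 8.17 to 11.6 CPM (median 9.88) with DMSO, with replicate 1 inside the DMSO range (0.95 ± 0.30, adjusted p = 0.0322). The remaining oxidases acox-1 (0.18), F59F4.1 (0.02) and F08A8.3 (-0.08) did not pass.

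Outside the oxidases, pmp-5 on chromosome V (6662191 to 6665813) had 85.4, 112 and 106 CPM with loxapine, against 33.4 to 59.9 CPM (median 54.5) with DMSO, a log2 fold change of 1.06 ± 0.17 (adjusted p = 0.00156). The gene hacd-1, for a 3-hydroxyacyl-CoA dehydrogenase (chromosome V, 1460369 to 1461613), had 108, 150 and 199 CPM with loxapine, against 62.7 to 97.7 CPM (median 67.2) with DMSO (1.07 ± 0.23, adjusted p = 0.00631). For acdh-1 (chromosome I, 6497436 to 6499560) the loxapine libraries had 681, 1164 and 1116 CPM, against 456 to 655 CPM (median 571) with DMSO (0.82 ± 0.18, adjusted p = 0.00663). No loxapine library overlapped the DMSO range for these 3 genes, and replicate 1 was the lowest in each. In the 3 series the log2 difference was 0.51, 1.68 and 0.90 for pmp-5, 0.15, 1.23 and 1.55 for hacd-1 and 0.25, 1.33 and 0.78 for acdh-1. Of the synthetases acs-11 (0.38 ± 0.10, adjusted p = 0.0153) and acs-19 (0.38 ± 0.10, adjusted p = 0.0152) rose.

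The 3 members that fell with loxapine in N2 were cpt-1, acdh-9 and acs-16. The level of cpt-1 was 385, 375 and 346 CPM with loxapine, against 453 to 503 CPM (median 494) with DMSO, without overlap (-0.40 ± 0.08, adjusted p = 0.00310, and -0.23, -0.37 and -0.54 within the 3 series). For the acyl-CoA dehydrogenase gene acdh-9 the log2 fold change was -0.30 ± 0.08 (adjusted p = 0.0156), and for acs-16 it was -0.75 ± 0.19 (adjusted p = 0.0119). The level of acs-16 was 17.0, 9.63 and 10.2 CPM with loxapine, against 16.6 to 23.7 CPM (median 21.1) with DMSO, with replicate 1 inside the DMSO range. All 10 enoyl-CoA hydratases had positive values, between 0.10 and 0.48, and none passed. These values come from the same libraries and are not independent. Neither thiolase passed, with kat-1 at 0.15 and daf-22 at -0.21.

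The calls of C48B4.1, F08A8.2, cpt-1 and pmp-5 held under each of the 17 alternatives. Without N2 loxapine replicate 2 the count of changed members was 5, without replicate 3 it was 9 and without replicate 1 it was 16. With the library series as a block the count was 23. Leaving out replicate 2 ended the calls of acdh-1 (adjusted p = 0.0617), acs-11 (0.158), acdh-9 (0.155), acs-16 (0.0881), acs-19 (0.0795) and F08A8.4 (0.132), and that of hacd-1 ended with N2 DMSO replicates 2 and 3 as the only controls (0.0528). With the replicate block acs-19 lost its call (adjusted p = 0.0767) and 6 members gained one, for a count of 16. They were acdh-12 (0.0321) and, named after their values were seen, acdh-13 (0.0342), cpt-6 (0.0364), ech-4 (0.0327) and ech-8 (0.0373), all higher, and cpt-3 (0.0223), which was lower.

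Of the related lists, none of the 14 mitochondrial partners passed with loxapine in N2. Of all tested genes 18.9% passed (10.5% higher and 8.38% lower), and an excess in the lists was not tested. In propionate breakdown 2 of 9 rose, mmaa-1 (0.51 ± 0.11) and Y38F1A.6 (0.42 ± 0.11), and 0 fell. Named after its values were seen, alh-8 of this list stood at -0.48 ± 0.19 and did not pass (edgeR, adjusted p = 0.0732). The summed list did not rise, with 2536 to 3101 CPM with loxapine, against 2940 to 3695 CPM with DMSO. In peroxisome assembly and catalase 2 of 13 rose, prx-14 (0.35 ± 0.11) and prx-10 (0.34 ± 0.10), both for peroxins, and ctl-2 stood at 0.05 and did not pass. Of the 13 regulators nhr-13, for a nuclear receptor, rose (0.34 ± 0.11) and hlh-30, for the worm relative of TFEB, fell (-0.71 ± 0.20). In the same libraries 12 of 16 germline and oocyte markers rose (summed 6924 to 8164 CPM with loxapine, against 5024 to 6121 CPM with DMSO). Muscle markers fell in 10 of 12 cases (2202 to 2986 CPM with loxapine, against 4051 to 4856 CPM with DMSO) and neuron markers in 5 of 12, while 1 of 12 hypodermis markers fell and no intestine or sperm marker passed. Their part in the members' changes was not tested.

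**Figure D3:**
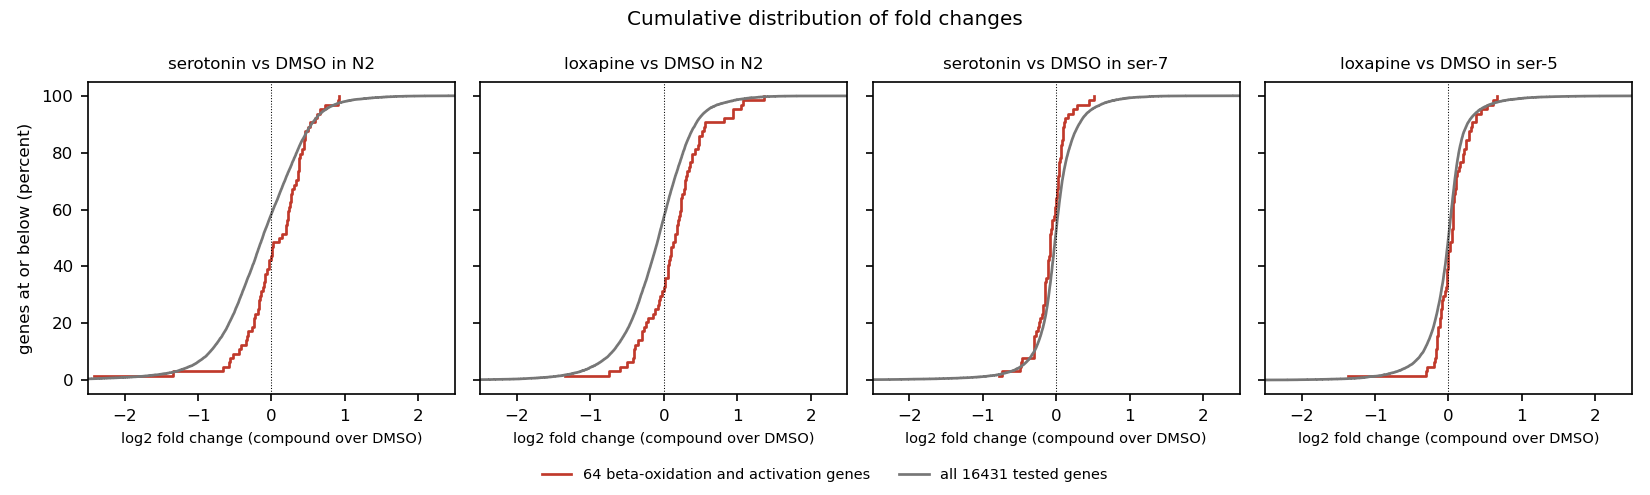
Cumulative distributions of log2 fold changes (compound over DMSO) of the 64 members and of all 16431 tested genes in the 4 comparisons. In N2 the members' medians are 0.13 with serotonin and 0.15 with loxapine, against -0.12 and -0.07 for all genes, and in the mutants they are -0.08 in ser-7 and 0.05 in ser-5, against -0.01 and -0.0011 for all genes.

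Serotonin and loxapine differed in N2 for 1 member, C48B4.1, which was lower with serotonin (log2 difference -0.84 ± 0.18, adjusted p = 0.0220), where 1.5% of all tested genes differed (0.548% higher and 0.949% lower). It had 17.7, 31.0 and 23.25 CPM with serotonin, against 34.4, 49.8 and 44.3 CPM with loxapine, without overlap. Another 14 members reached an unadjusted p under 0.05 only, for instance acs-13 (0.35, adjusted p = 0.0785) and acs-22 (-0.45, adjusted p = 0.0929). How many of all tested genes did so was not counted. For F08A8.2, the oxidase gene that rose with both compounds, the difference was -0.44 ± 0.27 (adjusted p = 0.372), and for acs-2 it was 1.13 ± 0.45 (adjusted p = 0.181). The call of C48B4.1 ended without serotonin replicate 3 (adjusted p = 0.0677), loxapine replicate 2 (0.163) or loxapine replicate 3 (0.0986) and with the compared groups only (0.552). The count of members was 7 without serotonin replicate 1, 3 without serotonin replicate 2, 5 without loxapine replicate 1 and 0 without serotonin replicate 3, loxapine replicate 2 or loxapine replicate 3. It was 6 with the replicate block, which added acs-2 (adjusted p = 0.0157, higher with serotonin) and acs-22 (0.0232), F08A8.3 (0.0143), cpt-3 (0.0139) and pmp-2 (0.0298), all lower with serotonin, and DESeq2 called 2 higher and 1 lower. With the library series as a block the count was 10. Of the related lists and markers, only 1 of 13 peroxisome genes differed between the compounds, lower with serotonin.

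In the ser-7 mutant, serotonin changed none of the 64 members by edgeR or DESeq2, and 1 (pmp-4) reached an unadjusted p under 0.05. None of all tested genes passed by edgeR in the main fit (0%), and with the library series as a block 4 were higher and 6 lower. The members' median log2 fold change was -0.08, against -0.01 over all genes, and 24 of 64 values were positive. The level of acs-13 was 345, 368 and 313 CPM in ser-7 with serotonin, against 311, 320.3 and 352 CPM with DMSO. That of acs-19 was 318, 301 and 284 CPM with serotonin, against 319, 280.3 and 283 CPM with DMSO. For cpt-1 they were 431, 450.2 and 418 CPM with serotonin, against 388, 394 and 430.2 CPM with DMSO. Groups overlapped in all 3 genes. All 3 serotonin libraries lay above all 3 DMSO libraries of ser-7 for 1 member, acdh-9, where 5.31% of all genes did so, and below them for 7, where 4.98% of all genes did so, among them acs-22 (65.9, 71.0 and 69.8 CPM with serotonin, against 77.4, 86.7 and 85.2 CPM with DMSO), the ascaroside synthesis gene acs-7 (15.2, 16.2 and 15.0 CPM against 21.1, 24.6 and 18.2 CPM) and pmp-4. Their log2 fold changes of -0.27 ± 0.14, -0.46 ± 0.25 and -0.48 ± 0.22 did not pass. No gene of the 4 related lists and no tissue marker passed in ser-7.

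The difference in the serotonin response between ser-7 and N2 was tested as an interaction. It passed for 4 members, 1 higher and 3 lower in ser-7, where 15.6% of all tested genes passed (5.65% higher and 9.96% lower). The members' median difference was -0.17, against 0.11 over all genes. The serotonin response of F08A8.2 was -0.25 ± 0.28 in ser-7, against 0.92 ± 0.24 in N2, a difference of -1.17 ± 0.37 (adjusted p = 0.0353). For acs-19 it was 0.03 ± 0.12 in ser-7, against 0.59 ± 0.10 in N2 (-0.56 ± 0.15, adjusted p = 0.0180), and for acs-13 it was 0.06 ± 0.10 in ser-7, against 0.53 ± 0.09 in N2 (-0.47 ± 0.14, adjusted p = 0.0251). For cpt-1 the response was 0.10 ± 0.08 in ser-7, against -0.34 ± 0.08 in N2 (0.44 ± 0.11, adjusted p = 0.0142). Just beyond the threshold were kat-1 (-0.51 ± 0.17, adjusted p = 0.0523), pmp-5 (-0.78 ± 0.27, adjusted p = 0.0533) and acdh-13 (-0.53 ± 0.18, adjusted p = 0.0538). Altogether 15 members reached an unadjusted p under 0.05, and the share of all tested genes at that level was not counted. The DMSO levels enter these differences. With DMSO, acs-13 was lower in ser-7 than in N2 (log2 fold change -0.40, edgeR, adjusted p = 0.0391). The values of cpt-1 (-0.27), F08A8.2 (-0.20) and acs-19 (-0.04) did not pass. The part of these baselines in the differences was not tested.

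**Figure D4:**
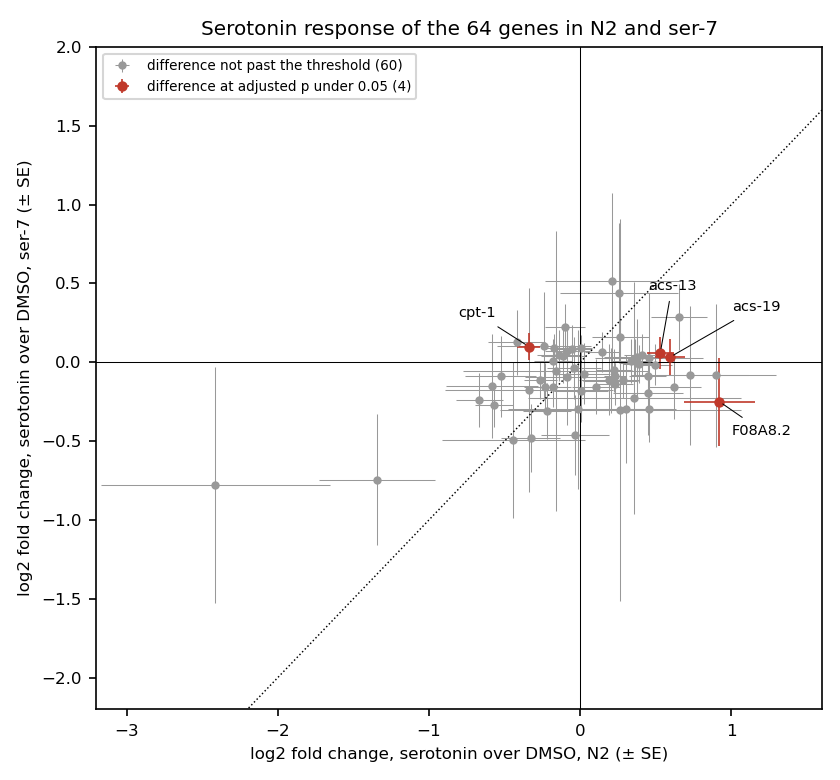
Serotonin response (log2 fold change over DMSO ± SE) of the 64 members in ser-7 on the vertical axis and in N2 on the horizontal axis, with the dotted line at equal response. Red points are the 4 members whose difference passed: F08A8.2, acs-19 and acs-13 lie to the right near the level of no change in ser-7, and cpt-1 lies to the left. The grey point at -2.41 on the horizontal axis is cpt-3, whose difference of 1.63 ± 1.04 did not pass.

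The cpt-1 difference ended under 1 of 23 alternatives (N2 DMSO replicates 2 and 3 as the only controls, adjusted p = 0.0563), that of acs-19 under 4, that of acs-13 under 7 and that of F08A8.2 under 13. The count was 18 without N2 serotonin replicate 1, 1 without N2 serotonin replicate 3 and 2 without ser-7 serotonin replicate 1, RLE size factors gave 1 higher and 7 lower and DESeq2 1 higher and 9 lower. With the library series as a block the count was 16. With the replicate block acs-13 (adjusted p = 0.0847) and acs-19 (0.0508) lost their calls and 5 members gained one, for a count of 7. These were acdh-1 (0.0350), acdh-13 (0.0280), kat-1 (0.0308) and pmp-5 (0.0418), lower in ser-7, and cpt-3 (0.00965), higher in ser-7. In the main fit 15.6% of all tested genes passed for the interaction (5.65% higher and 9.96% lower). In the related lists the interaction was lower in ser-7 for 4 of 9 propionate genes, with Y38F1A.6 at -0.76 ± 0.17 and mmaa-1 at -0.68 ± 0.17, for 3 of 13 peroxisome genes and for 2 of 13 regulators. It was higher for 2 of 13 peroxisome genes, ctl-2 (0.40 ± 0.11) and prx-13 (0.64 ± 0.21), and for 2 regulators, and none of the 14 mitochondrial partners passed. It was lower for 12 of 16 germline and oocyte markers and higher for 7 of 12 muscle markers, 2 of 12 neuron markers, 1 of 11 intestine markers and, with 1 further marker lower, 1 of 12 hypodermis markers. The germline sum was 4164 to 4603 CPM in ser-7 with serotonin and 4035 to 4957 CPM in ser-7 with DMSO, and the part of these markers in the members' differences was not tested.

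In the ser-5 mutant, loxapine changed none of the 64 members by edgeR or DESeq2, and 1 reached an unadjusted p under 0.05. Of all tested genes 0.0487% passed by edgeR. The group held 2 libraries, and SEs were correspondingly wider. That 1 member was C48B4.1, with 31.3 and 34.1 CPM in ser-5 with loxapine, against 23.2, 23.1 and 21.97 CPM with DMSO. Its groups did not overlap, and the log2 fold change of 0.52 ± 0.19 did not pass (unadjusted p = 0.0131). For F08A8.2 the libraries had 6.31 and 5.08 CPM with loxapine, against 3.98, 4.92 and 3.68 CPM with DMSO (0.44 ± 0.30), and for pmp-5 they had 51.2 and 45.0 CPM, against 38.8, 41.8 and 41.8 CPM (0.24 ± 0.22). For acdh-1 the values were 504 and 554 CPM with loxapine, against 427, 528 and 521 CPM with DMSO, and they overlapped (0.10 ± 0.23). Both loxapine libraries lay above all 3 DMSO libraries for 10 members, where 8.03% of all genes did so, and below them for 6, where 7.98% did so. No gene of the related lists and no tissue marker passed.

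The difference in the loxapine response between ser-5 and N2 passed for none of the 64 members and for none of all tested genes by edgeR in the main fit (0%). Over all tested genes, edgeR with the library series as a block called 41 higher and 2 lower. DESeq2 called 18 higher and 2 lower. DESeq2 called none of the members, and 5 had an unadjusted p under 0.05, a level not counted over all genes. These were pmp-5 (response 0.24 ± 0.22 in ser-5, against 1.06 ± 0.17 in N2, difference -0.82 ± 0.29), acdh-1 (-0.71 ± 0.30), F08A8.2 (-0.92 ± 0.39), hacd-1 (-0.79 ± 0.37) and cpt-1 (0.25 ± 0.12), with adjusted p between 0.478 and 0.526. For C48B4.1 the response was 0.52 ± 0.19 in ser-5, against 0.94 ± 0.15 in N2, a difference of -0.42 ± 0.25 (adjusted p = 0.601). A lower response in ser-5 is therefore not shown for any member.

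With DMSO alone, ser-7 differed from N2 in 1 member, where 1.2% of all tested genes differed. The acs-13 level was 311, 320.3 and 352 CPM in ser-7, against 416 to 455 CPM (median 426) in N2, without overlap (log2 fold change -0.40 ± 0.09, adjusted p = 0.0391). Another 11 members had an unadjusted p under 0.05 only, including cpt-1 (-0.27 ± 0.08, adjusted p = 0.0874), pmp-5 (-0.62 ± 0.18, 0.104) and acdh-1 (-0.50 ± 0.19, 0.202). How many of all tested genes reached that unadjusted level was not counted. Of 64 values 14 were positive, and the median was -0.11, against -0.01 over all genes. The acs-13 call ended under 12 of 17 alternatives, with no member passing without N2 DMSO replicate 3, 4, 5 or 6, without ser-7 DMSO replicate 1 or 2 or with the replicate block (adjusted p = 0.123), and 2 passing without ser-7 DMSO replicate 3. With the library series as a block 4 members passed. Between ser-5 and N2 with DMSO no member passed by edgeR or DESeq2, where 0.00609% of all genes did, and 2 had an unadjusted p under 0.05, cpt-1 (-0.22 ± 0.08) and acs-13 (-0.26 ± 0.09). Of the related lists and markers, only 1 of 13 regulators passed between ser-7 and N2 with DMSO (lower in ser-7), and none between ser-5 and N2. The summed germline and oocyte markers were nevertheless at 4035 to 4957 CPM in ser-7, against 5024 to 6121 CPM in N2, and the hypodermis and seam markers at 586 to 1051 CPM in ser-7, against 1094 to 1297 CPM in N2. Neither sum overlapped between the strains, and their part in the acs-13 difference was not tested.

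Among the DMSO libraries some members differed by library series. The 4 members above 5 CPM with the widest relative spread among the N2 DMSO libraries, a choice made after their values were seen, were cpt-3 (coefficient of variation 69.3%), acs-2 (45.8%), cpt-4 (31.9%) and ech-7 (30.2%). In series 3 the DMSO libraries had 21.3 CPM of cpt-3 in ser-7, 21.5 in ser-5 and 18.1 and 21.1 in N2, and in series 1 and 2 those of all strains had 4.08 to 7.29 CPM. In series 2 they had 185 CPM of acs-2 in ser-7, 153 in ser-5 and 218 and 238 in N2, against 72.1 to 114 CPM in the other series. Libraries of all 3 strains thus lay on the same side in each of these series, and the DMSO levels of series 3 for cpt-3 and of series 2 for acs-2 did not overlap those of the other series. For cpt-4 the DMSO libraries of series 3 had 11.7 to 13.6 CPM, against 17.0 to 29.8 CPM in the other series, and for ech-7 those of series 2 had 18.1 to 29.7 CPM, against 41.1 to 55.3 CPM.

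**Figure D5:**
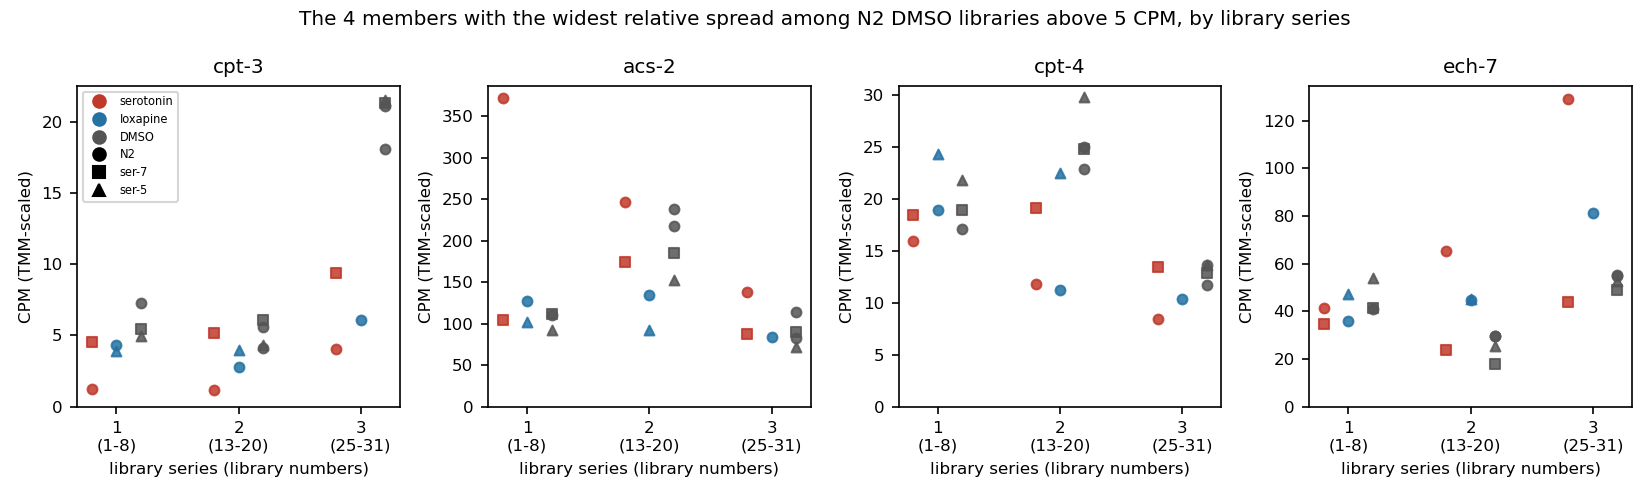
Levels (CPM on TMM-scaled totals) of cpt-3, acs-2, cpt-4 and ech-7 in the 22 libraries by library series, with colour for the treatment and shape for the strain. The DMSO libraries of series 3 stand at 18.1 to 21.5 CPM for cpt-3 and those of series 2 at 153 to 238 CPM for acs-2, apart from the DMSO libraries of the other series, and the highest acs-2 value (372 CPM) belongs to N2 with serotonin in series 1.

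Within the series, the compounds could be compared with DMSO libraries of the same run of numbers. With serotonin in N2, 18 members were higher in every series, where 24.5% of all genes were, and 9 were lower in every series, where 31.1% were. With loxapine in N2 the numbers were 17 (23.4% of all genes) and 8 (30.2%). In ser-7 with serotonin 6 members were higher (17.2% of all genes) and 20 lower (18.5%) in every series, and in ser-5 with loxapine 27 were higher (30%) and 15 lower (29.5%) in both series that held loxapine. For acs-2 with serotonin in N2 the log2 difference was 1.74 in series 1, 0.12 in series 2 and 0.49 in series 3. For cpt-3 it was -2.48, -1.99 and -2.25, lower in all 3 series.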

How the data were processed

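The deposited table holds raw counts of single-end 100 nt reads per gene from 22 libraries in 7 groups, as the authors deposited them. For the aligner, the counting program, the genome build and the strand setting, the sources used here give no entry. Gene IDs were joined to Ensembl release 115 (WBcel235), where all 19598 were found, for positions and exon lengths.

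Genes with low counts were removed with filterByExpr (minimum count 10, minimum total 15), totals were scaled by TMM, and edgeR 4.0.16 (R 4.3.3) was fitted with a mean per group over all 22 libraries and robust quasi-likelihood tests. P-values were adjusted by Benjamini-Hochberg over the 16431 genes tested and called at 0.05. Members with an unadjusted p under 0.05 were counted without the share over all tested genes, so these counts show no excess among the members. SEs were taken as the absolute log2 fold change over the root of the F statistic. Levels were expressed as CPM on TMM-scaled totals, and CPM per kb divides them by exon length. Within library series, log2 differences used a pseudocount of 0.1 CPM. The fitting steps were tested on simulated counts drawn independently for each library. These held no series effects and no near-duplicate controls, so they do not show how such features act on the p-values.

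The members and lists were chosen with earlier results of these data known. Named members were up to 8 higher and 8 lower called members with the largest fold change per comparison plus a fixed set of well-studied genes (such as acs-2, cpt-1, acdh-1, the oxidases and daf-22), and up to 3 called genes per list. Alternatives were size factors by RLE, DESeq2 1.42.0, keeping all genes unfiltered, the compared groups only, replicate and series blocks, subsets of the N2 DMSO libraries, near-duplicate libraries summed and each library left out.

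The labels give each library a batch tag (r1 to r6) that also numbers the replicates. Only the replicate block, an alternative, took libraries with the same tag as paired across groups. The main tests used no block and ignored both the tag and the library series. N2 with DMSO has no r1, and its r4, r5 and r6 share their tag with no other library, so under the block only 2 of the 5 N2 DMSO libraries are paired. Over 51 pairs with the same tag in different groups, the correlation of deviations from the group means had a median of 0.230 (-0.0959 to 0.648), and 38 pairs were over 0.1. The median was 0.247 for 68 pairs within a library series and -0.130 for 137 pairs from different series. Deviations within a group sum to 0, so positive correlations within series go with negative ones between series. The -0.130 is therefore no baseline for unrelated libraries.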

Additional observations from a re-analysis of the deposited data

Results flagged for a closer look

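Among the 5 N2 DMSO libraries, the only group with more than 3, 1 library stood far from the others for 1 member. N2 DMSO replicate 4 had 97.7 CPM of hacd-1, and the next highest had 68.7 CPM, a gap of 0.828 of the whole range, where chance passes the limit of 0.71 in about 1 of 20 groups. The limit was applied to each of the 64 members, so chance alone can put some members past it. That rate also assumes 5 independent libraries, whereas N2 DMSO replicates 2 and 5, and 3 and 6, resembled each other. Replicate 4 is the only N2 DMSO library of series 1. The DMSO libraries of that series had 85.8 CPM in ser-7 and 104.1 CPM in ser-5, and those of series 2 and 3 had 47.6 to 89.6 CPM over the 3 strains. The 97.7 CPM lay below the lowest N2 loxapine library (108 CPM).

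The serotonin response differed between ser-7 and N2 for 4 members by the interaction test (edgeR, adjusted p under 0.05), or 6.25% of them, where 15.6% of all tested genes differed. The log2 difference was -1.17 ± 0.37 for F08A8.2 (adjusted p = 0.0353), -0.56 ± 0.15 for acs-19 (0.0180), -0.47 ± 0.14 for acs-13 (0.0251) and 0.44 ± 0.11 for cpt-1 (0.0142). With the replicate block acs-13 (adjusted p = 0.0847) and acs-19 (0.0508) lost their calls. In ser-7 the serotonin and DMSO libraries overlapped for each of these 4 genes. In the same test 12 of 16 germline and oocyte markers were lower and 7 of 12 muscle markers higher.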

How the results depend on the processing

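No gene result changed sign past the threshold under any alternative. Of the results for single genes, 1094 kept their direction and side of the threshold, 121 lost a call and 28 gained one. Counts of changed members moved by over 1.5 times as follows, and the cause was not tested. With serotonin in N2 (20 members) the count was 11 with N2 DMSO replicates 2 and 3 only, 12 with the compared groups only and 10 to 28 with a library left out. With loxapine in N2 (11) it was 23 with the library series as a block, 4 with N2 DMSO replicates 2 and 3 only, 7 with near-duplicate libraries summed and 5 to 16 with a library left out. For the serotonin response in ser-7 minus N2 (4) it was 8 with RLE, 10 with DESeq2, 7 with the replicate block, 16 with the series block, 0 with N2 DMSO replicates 2 and 3 only, 2 with near-duplicates summed and 1 to 18 with a library left out. For ser-7 against N2 with DMSO (1) it was 0 with RLE, 3 with DESeq2, 0 with the replicate block, 4 with the series block, 0 with near-duplicates summed, with N2 DMSO replicates 4 to 6 only or with its replicates 2 and 3 only, and 0 to 2 with a library left out. For serotonin against loxapine in N2 (1) it was 3 with DESeq2, 0 with the compared groups only, 6 with the replicate block, 10 with the series block and 0 to 7 with a library left out. The other 4 comparisons stayed at 0 throughout. In ser-5 with loxapine, leaving out 1 library leaves 1, which is assumed to vary like the other groups. The replicate block gave 20 with serotonin and 16 with loxapine in N2, and changed no call beyond those named beside the results. Depth limits the 8 members under 1 CPM.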
